A study of Mus musculus with 12 samples.

Results

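Polysome association was measured in untreated cells of clone #483, a T cell acute lymphoblastic leukaemia (T-ALL) from C57BL6 mice. Of the 12 arrays of the series 6 were used, chosen by their titles: 3 of RNA pooled from the polysomal part of sucrose gradients and 3 of cytoplasmic RNA. Untreated is the word of the labels, and the design text says instead that control cells received DMSO during the 2 h incubation. The other 6 arrays hold the same fractions from cells given 4EGI-1, an inhibitor of the contact between eIF4E, which binds the mRNA cap, and the scaffold eIF4G, at 100 µM for 2 h. They served to estimate the spread and as the comparison at the end. All cells are 1 clone, and every polysome preparation was made in the presence of cycloheximide, which holds ribosomes on the mRNA.

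Several limits belong to the groups themselves. The reference is labelled cytoplasmic, but its titles say Total. By the design text whole cells went into Trizol for it, so nuclear RNA may be present. The polysomal RNA passed instead through alcohol precipitation, a silica column and lithium chloride precipitation, so the fraction and the way its RNA was made cannot be told apart. Biological replicates are named in the design text alone, and no label says that cultures were separate, so the p-values reflect spread among these arrays only, which may be technical. Each array was scaled alike by the submitters, so the total amount of polysomal RNA was not measured and every difference is relative to the rest of the same array.

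Polysomes are mRNAs that carry several ribosomes at once and therefore sediment far into a gradient. The share of an mRNA found there depends on how often ribosomes start on it, how fast they move along it and how long its reading frame is. Noncoding RNAs that work in the nucleus or nucleolus, such as the small nucleolar RNAs that guide chemical modification of ribosomal RNA, are not translated.

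The measurement is the log2 value of a gene's probe set in polysomal arrays minus that in cytoplasmic arrays, where 1 log2 unit is a 2-fold difference. Errors are standard errors of the limma fit, and a gene was called where its Benjamini-Hochberg adjusted p was below 0.05 over all 13180 genes tested. Of these genes, 3819 were called, which is 29.0% of those tested. Higher in polysomal RNA were 2205 genes (16.7%) and lower were 1614 (12.2%), and the median over all genes was -0.02. The higher genes made up 57.7% of the calls, and 74.7% when every array was centred on its median instead. The 3 polysomal arrays lay wholly above the 3 cytoplasmic arrays for 2839 genes (21.5%) and wholly below them for 2626 (19.9%). A call with a difference of at least 2-fold was less common in both directions, with 64 genes higher (0.486%) and 114 lower (0.865%). Levels of different genes cannot be compared on these arrays, and precision is limited by having 3 arrays a group.

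**Figure D1:**
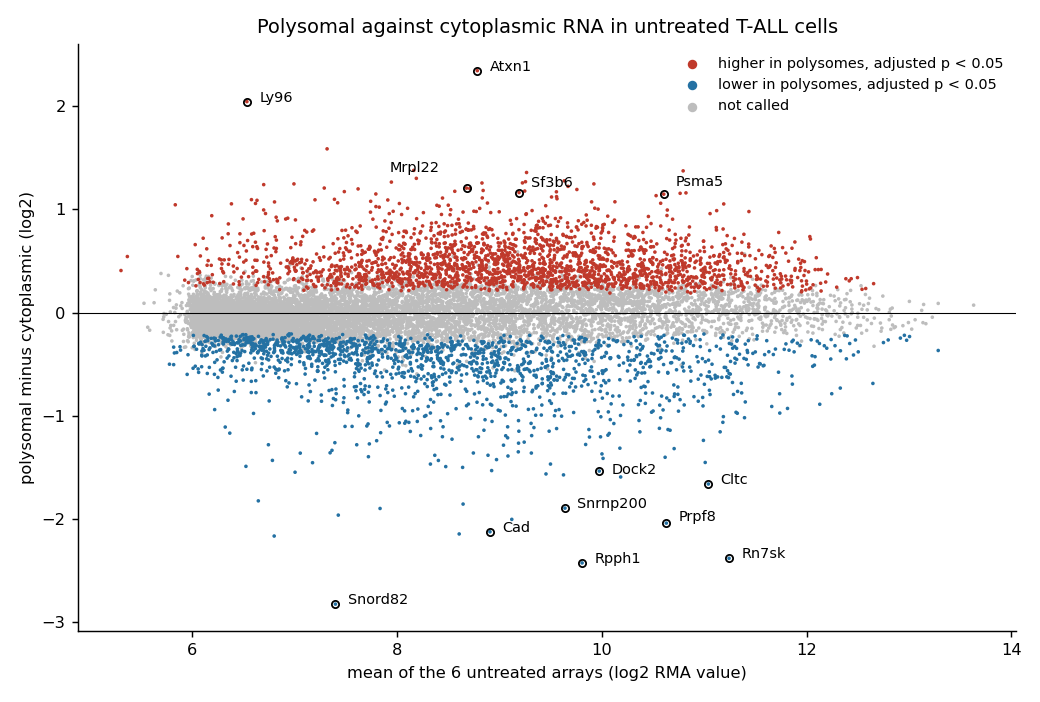
Polysomal minus cytoplasmic difference (y axis, log2) against the mean log2 value over the untreated arrays (x axis) for each of the 13180 genes tested, with called genes in red (higher) or blue (lower) and some genes named in the text circled. Differences reach further below 0 than above it, to -2.82 for Snord82 against 2.34 for Atxn1.

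Replicates of the polysomal fraction were tighter than those of the cytoplasmic fraction: the median standard deviation of a gene over 3 arrays was 0.0745 in polysomal and 0.133 in cytoplasmic RNA. How often a gene was called also moved with its brightness on the array. Among the dimmest sixth of the genes 2.46% were higher and 5.28% lower, and among the brightest sixth 29.9% were higher and 14.3% lower. The shares over all genes are therefore a rough background for lists of bright or dim genes, and the part of brightness in a list's count was not tested. Counts of the lists below are to be read beside these shares, 16.7% higher and 12.2% lower, and no list was tested against them. As for the labelled cell type, all 18 T cell and thymocyte markers on the array passed the filter on dim genes. So did 5 of 10 B cell markers, 6 of 14 myeloid, 3 of 5 erythroid and platelet and 8 of 13 stromal and epithelial markers. Passing the filter does not show that a gene is expressed.

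The noncoding RNAs held the largest differences of all. Of 54 small nucleolar and Cajal body RNAs on the array, 41 were bright enough to test, 32 were lower in polysomal RNA, 9 were not called and 0 were higher. Their median difference was -0.86, beside -0.02 over all genes. At an unadjusted limma p below 0.05, 0 were higher as well, and in 3 of 20 alternative fits 1 of them was called higher. Most of them lie in the introns of other genes, so a whole-transcript probe set can also report the unspliced host. Snord82, a box C/D small nucleolar RNA, read 8.70, 9.51 and 8.23 in cytoplasmic arrays 1, 2 and 3 and 5.79, 5.48 and 6.68 in the polysomal ones. The polysomal arrays were all lower, with a difference of -2.82 ± 0.36 (7.09-fold lower, adjusted p = 4.8e-05). In polysomal arrays 1 and 2 Snord82 lay below the level of the filter on dim genes. Snord87 fell from 7.93, 8.17 and 7.55 to 5.78, 5.59 and 5.78, a log2 difference of -2.17 ± 0.14 (adjusted p = 8.31e-08). All 3 polysomal values of Snord87 lay below the filter level too. How far a floor of the array limits the size of these differences was not tested. For Snord16a the values were 9.73, 9.77 and 9.54 against 7.43, 7.64 and 7.53, a difference of -2.15 ± 0.10 (adjusted p = 5.57e-09). In both RNAs the gap between the fractions was several times the spread within either one. The naming rule took them among called genes whose arrays do not overlap, so this separation is no further support. Snora23, picked out after its value was seen, had the highest difference of the list, 0.52 ± 0.27, and was not called (adjusted p = 0.177).

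Some structural RNAs of other nuclear machines were lower too, and others were not called, as the telomerase RNA Terc (0.00 ± 0.10, adjusted p = 0.986) and the minor spliceosome RNA Rnu12 (-0.21 ± 0.10, adjusted p = 0.143). Rn7sk, the 7SK RNA that holds the transcription elongation kinase P-TEFb inactive, measured 12.52, 12.35 and 12.44 in cytoplasmic RNA and 10.00, 10.12 and 10.04 in polysomal RNA. The difference was -2.38 ± 0.11, or 5.21-fold lower (adjusted p = 3.4e-09), and a second probe set of this gene gave -3.48. Rpph1, the RNA of the tRNA-processing enzyme RNase P, went from 11.07, 11.04 and 10.94 to 8.52, 8.69 and 8.57. That is -2.43 ± 0.11 (5.37-fold lower, adjusted p = 3.4e-09). Rmrp, the RNA of the related enzyme RNase MRP, was lower by less, at -1.10 ± 0.10 (adjusted p = 3.47e-06), from 8.61, 8.33 and 8.47 to 7.43, 7.40 and 7.30. Rn7sk, Rpph1 and Rmrp did not overlap between the fractions, which the naming rule required of Rn7sk and Rpph1.

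Long noncoding RNAs were mixed. Of the 351 genes that RefSeq classes as lncRNA, 58 were lower and 12 higher, with a median of -0.09. Of the 15 nuclear and structural noncoding RNAs tested out of 26 on the array, 9 were lower and 2 higher. Mir17hg, the host transcript of a microRNA cluster, fell by 0.76 ± 0.14 on the log2 scale (adjusted p = 0.0009), its arrays reading 6.77, 7.06 and 6.54 in cytoplasmic and 5.92, 5.97 and 6.19 in polysomal RNA. Malat1, a nuclear speckle RNA, read 11.11, 11.43 and 10.54 against 10.43, 10.60 and 10.53, and the groups overlapped (-0.51 ± 0.19, adjusted p = 0.0563). Neat1 was not named by a probe set with 1 symbol. Tug1 was called higher as well (0.27 ± 0.08, adjusted p = 0.0222), but not without cytoplasmic array 3 or any 1 polysomal array, with an adjusted p of up to 0.0819. Mirt1 was the other higher member, at 7.15, 7.11 and 7.04 in polysomal and 6.79, 6.58 and 6.50 in cytoplasmic RNA (0.48 ± 0.08, adjusted p = 0.000572). Platr25, which RefSeq lists as a miscellaneous RNA, had a difference of 1.24 ± 0.22 (adjusted p = 0.00054), the largest positive one of a noncoding gene once predicted and placeholder symbols and microRNAs are left out. Its cytoplasmic arrays spread widely, 6.50, 6.25 and 5.48, but stayed below the polysomal 7.73, 7.13 and 7.08. Slfn10-ps, which RefSeq also lists as a miscellaneous RNA, was higher too, at 0.37 ± 0.09 (adjusted p = 0.00528).

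The noncoding genes that host small nucleolar RNAs in their introns had a median of -0.23. Of 6 tested, 2 were lower and 0 higher, also 0 at an unadjusted limma p below 0.05, and the 2 became 1 without cytoplasmic array 1 or polysomal array 1. Snhg16 was lower at 6.99, 6.47 and 7.36 in polysomal against 7.91, 7.66 and 8.56 in cytoplasmic RNA (-1.10 ± 0.25, adjusted p = 0.00428), with wide spread in both fractions. Gas5, a host whose spliced RNA is known as a 5' TOP transcript, had arrays that did not overlap but was not called (-0.21 ± 0.09, adjusted p = 0.0955). Its 4 probe sets disagreed, with -0.21, -0.44, 0.63 and -0.33.

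**Figure D2:**
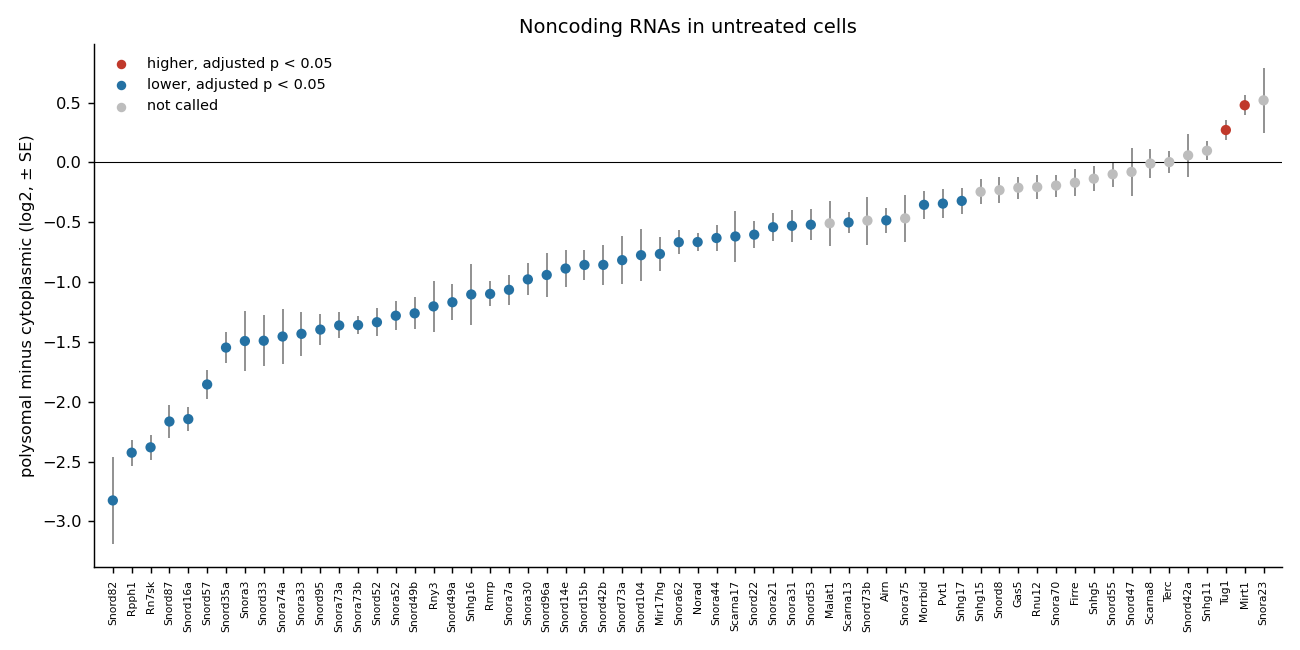
Polysomal minus cytoplasmic difference (y axis, log2, bars are standard errors of the fit) for each tested member of the 3 lists of small nucleolar, snoRNA host and structural noncoding RNAs, in order of the difference (x axis), with called RNAs in red (higher) or blue (lower). Called lower RNAs run from Snord82 on the left, and only Tug1 and Mirt1 were called higher.

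MicroRNA entries of the array report precursor or host transcripts and not the mature RNAs. Of 300 entries, 104 were bright enough to test, 23 were lower and 1 higher, with a median of -0.13. The count of lower entries fell to 14 without cytoplasmic array 2, to 14 without polysomal array 1 and to 12 without polysomal array 3. The higher entry, Mir103-2, lost its call without cytoplasmic array 1 or 3 or polysomal array 2 or 3, with an adjusted p of up to 0.188, and the count of higher entries was 4 without cytoplasmic array 2. RefSeq held the mature sequence of 22 of the 24 called entries, and 4 seeds (bases 2 to 8) occurred in more than 1 of them. The sequences below are those of a shared seed and of the entries with the largest differences, given 5' to 3' with the seed in capitals and with positions in RefSeq's GRCm38.p6.
miR-181b-5p of Mir181b-1, chr1:137966650-137966673, plus strand: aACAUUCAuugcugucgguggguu
miR-181b-5p of Mir181b-2, chr2:38853845-38853868, plus strand: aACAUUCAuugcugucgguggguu
miR-181a-5p of Mir181a-2, chr2:38852741-38852763, plus strand: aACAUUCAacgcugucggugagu
miR-680 of Mir680-1, chr6:129691541-129691561, plus strand: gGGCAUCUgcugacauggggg

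The 3 entries with the seed ACAUUCA belong to the miR-181 family, which is known for tuning T cell receptor sensitivity in thymocytes. Mir181b-1 had the largest difference of any microRNA entry, from 7.74, 7.29 and 7.63 to 5.64, 5.68 and 5.88 (-1.82 ± 0.15, 3.54-fold lower, adjusted p = 6.47e-07). Mir181b-2, whose mature sequence is the same, differed by -0.59 ± 0.19 (adjusted p = 0.0337), and that call was lost without cytoplasmic array 1 or 2 or polysomal array 2 or 3, with an adjusted p of up to 0.146. Mir181a-2 differed by -0.37 ± 0.11 (adjusted p = 0.0166), a call lost without cytoplasmic array 2 or polysomal array 3, with an adjusted p of up to 0.0965. The values of the 2 entries with identical mature sequence were thus -1.82 and -0.59, and their difference was not tested. The polysomal values of Mir181b-1 all lay below the level of the filter on dim genes. How far a floor of the array limits its difference was not tested either. Mir680-1 and Mir680-2 share their mature sequence too and gave -0.85 ± 0.20 and -0.80 ± 0.22 (adjusted p = 0.00544 and 0.0114).

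Among protein-coding genes, the 10 with the largest negative differences under the naming rule were Cad, Prpf8, Fasn, Rpl12, H2bc8, Snrnp200, Cltc, Tomm5, Mthfd1 and Pole. The rule admits only called genes whose arrays do not overlap, so separate fractions are no further support for these 10. Cad, the multifunctional enzyme that starts pyrimidine synthesis, read 10.17, 9.70 and 10.04 in cytoplasmic arrays and 7.84, 7.81 and 7.88 in polysomal arrays. The difference was -2.12 ± 0.14, or 4.36-fold lower (adjusted p = 1.01e-07). Fasn, the fatty acid synthase, went from 10.33, 9.74 and 10.29 to 8.15, 8.22 and 7.98 (-2.00 ± 0.17, adjusted p = 9.76e-07). Both genes had their lowest cytoplasmic value in array 2, and even that value was far above every polysomal one.

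Cltc, the heavy chain of clathrin, fell from 11.94, 11.95 and 11.73 to 10.08, 10.30 and 10.25 (-1.66 ± 0.08, adjusted p = 1.18e-08). Mthfd1, a folate enzyme with several activities, gave 10.46, 10.20 and 10.58 against 8.71, 8.91 and 8.90 (-1.57 ± 0.12, adjusted p = 6.36e-07). Pole, the catalytic subunit of DNA polymerase epsilon, gave 10.29, 10.13 and 10.29 against 8.67, 8.66 and 8.68 (-1.56 ± 0.10, adjusted p = 8.31e-08). In all of them the polysomal arrays lay within 0.3 log2 units of each other and more than 1 unit below the cytoplasmic arrays. Tomm5, a small subunit of the mitochondrial import pore, was lower by -1.59 ± 0.20 (adjusted p = 4.8e-05) with a wider cytoplasmic spread, 10.88, 10.51 and 11.55 against 9.26, 9.42 and 9.48.

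**Figure D3:**
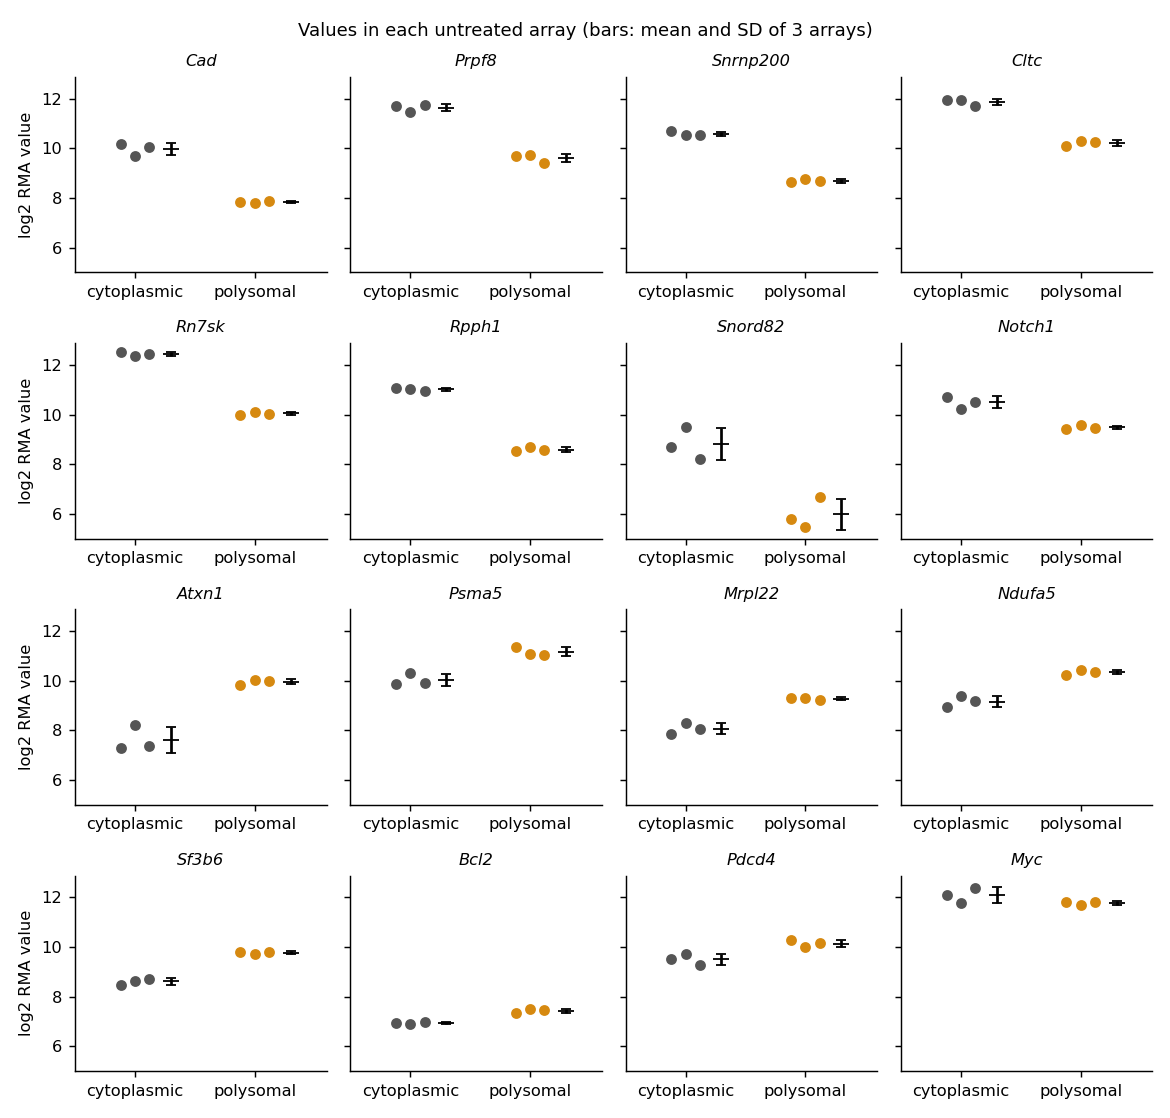
Log2 value on each untreated array (y axis) in the cytoplasmic and the polysomal fraction (x axis) for 16 genes described in the text, 1 panel a gene; points are arrays 1 to 3 and bars the mean and SD. The fractions overlap for Myc and are apart in the other panels (for Cad, cytoplasmic arrays from 9.70 to 10.17 and polysomal arrays from 7.81 to 7.88). For Cad, Prpf8, Snrnp200, Cltc, Rn7sk, Rpph1, Snord82 and Atxn1 the naming rule required this separation.

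Several lists of genes known to encode very large proteins had negative medians, while the length of the protein itself was not among the values used here. A link between protein size and the difference was not tested, for these genes or for those below. Tomm5, given above, and Rpl41, given below, encode small proteins and were lower too. The list of PI3K-related kinases, HECT ligases and giant scaffolds had 50 tested members of 52 on the array, of which 25 were lower and 3 higher, with a median of -0.27. Myh9, the heavy chain of nonmuscle myosin, went from 9.84, 9.54 and 9.67 to 8.37, 8.48 and 8.33 (-1.29 ± 0.12, adjusted p = 2.04e-06). Birc6, a giant ubiquitin ligase that inhibits caspases, fell from 10.69, 10.50 and 10.54 to 9.71, 9.83 and 9.75 (-0.81 ± 0.08, adjusted p = 3.57e-06), and Lrba, a scaffold needed for CTLA4 recycling, by 0.79 ± 0.08 on the log2 scale (adjusted p = 5.44e-06). Both were lower in every polysomal array. Members on the other side were Kmt2d, a histone methyltransferase, at 0.71 ± 0.12 (adjusted p = 0.000539), and Nbeal1 at 0.48 ± 0.09 (adjusted p = 0.00108). For Kmt2d a second probe set gave -0.02.

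All 7 tested DOCK exchange factors, which activate Rac and Cdc42 in the actin response of lymphocytes, had negative differences, and 4 were called. Dock2 read 10.80, 10.59 and 10.83 in cytoplasmic and 9.14, 9.21 and 9.27 in polysomal RNA (-1.54 ± 0.09, 2.9-fold lower, adjusted p = 4.64e-08). Dock8 followed with 9.74, 9.48 and 9.85 against 8.10, 8.25 and 8.13 (-1.53 ± 0.10, adjusted p = 1.01e-07). Dock11 had a smaller difference, -0.53 ± 0.08 (adjusted p = 0.000231), and the groups of all 3 genes were apart. With the dim members included the median of the DOCK list was -0.17 in place of -0.44.

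Within single complexes members lay on both sides of 0. Of 28 nuclear pore genes, 12 were lower and 4 higher. Nup205, a scaffold nucleoporin, gave 10.89, 10.66 and 10.60 against 9.21, 9.33 and 9.37 (-1.41 ± 0.09, adjusted p = 8.31e-08). Nup155, also of the scaffold, gave -0.96 ± 0.08 (adjusted p = 6.22e-07), and Nup133 was called lower too. Nup37 and Nup43, WD repeat members of the Y complex, were higher, at 0.55 ± 0.10 and 0.52 ± 0.11 (adjusted p = 0.000561 and 0.00178). Nup43 went from 10.48, 10.75 and 10.58 up to 11.22, 11.07 and 11.08.

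Of 32 spliceosome core genes, 12 were lower and 5 higher. Prpf8, the centre of the U5 particle, read 11.73, 11.49 and 11.73 in cytoplasmic and 9.70, 9.72 and 9.41 in polysomal arrays (-2.04 ± 0.11, 4.11-fold lower, adjusted p = 1.79e-08). Snrnp200, the U5 helicase that unwinds U4 from U6, went from 10.69, 10.52 and 10.55 to 8.63, 8.77 and 8.67 (-1.90 ± 0.08, adjusted p = 3.4e-09). Sf3b1, a subunit of the branch-point complex SF3B, was lower by -0.91 ± 0.07 (adjusted p = 6.22e-07). The SF3B subunits Sf3b6 and Sf3b5 were on the other side. Sf3b6 rose from 8.47, 8.64 and 8.72 to 9.82, 9.71 and 9.79 (1.16 ± 0.08, adjusted p = 1.85e-07), and Sf3b5 from 8.68, 8.90 and 8.85 to 9.42, 9.63 and 9.51 (0.71 ± 0.09, adjusted p = 4.75e-05). The 23 LSm and Sm proteins, which form small rings on spliceosomal and decay RNAs, had 10 members higher and 1 lower, with a median of 0.26. Snrpd1 gave 12.21, 12.18 and 12.12 in polysomal against 11.40, 11.70 and 11.54 in cytoplasmic RNA (0.62 ± 0.09, adjusted p = 0.000143), and Lsm1, the lower one, -0.59 ± 0.11 (adjusted p = 0.00118).

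Mitochondrial ribosomal proteins, respiratory subunits and proteasome subunits had positive medians. All 77 mitochondrial ribosomal proteins on the array were tested, 40 were higher and 3 lower, with a median of 0.28. Mrpl22 went from 7.85, 8.30 and 8.08 to 9.31, 9.31 and 9.22 (1.21 ± 0.12, 2.31-fold higher, adjusted p = 5.44e-06). Mrps18c rose from 8.67, 9.15 and 9.18 to 10.06, 10.02 and 10.27 (1.12 ± 0.12, adjusted p = 1.43e-05), while Mrps24 was lower at 8.61, 8.57 and 8.68 against 9.17, 9.10 and 9.28 (-0.56 ± 0.08, adjusted p = 0.000111). The count of lower members was 6 without cytoplasmic array 2, 1 without cytoplasmic array 3 and 1 without polysomal array 1.

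Of 79 tested respiratory chain and ATP synthase subunits encoded in the nucleus, 33 were higher and 4 lower, with a median of 0.22. Ndufa5, of complex I, gave 10.25, 10.43 and 10.37 in polysomal against 8.94, 9.38 and 9.17 in cytoplasmic RNA (1.19 ± 0.13, adjusted p = 1.56e-05). Cox7a2, of cytochrome oxidase, gave 11.00, 11.12 and 11.20 against 9.98, 10.37 and 10.15 (0.94 ± 0.12, adjusted p = 3.53e-05), and Cox8a of the same enzyme was lower, at -0.53 ± 0.13 (adjusted p = 0.00598). The 4 lower calls became 2 without cytoplasmic array 1, without polysomal array 1 or without polysomal array 3. Of 18 tested proteasome core subunits 10 were higher and 0 lower, with a median of 0.36. At an unadjusted limma p below 0.05 and in all 20 alternative fits 0 of these were lower as well. Psma5 rose from 9.86, 10.31 and 9.92 to 11.37, 11.10 and 11.06 (1.15 ± 0.14, adjusted p = 4.45e-05), and the interferon-inducible subunit Psmb9 from 9.75, 9.99 and 9.89 to 10.56, 10.74 and 10.60 (0.76 ± 0.09, adjusted p = 3.54e-05). The fractions did not overlap in either gene.

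**Figure D4:**
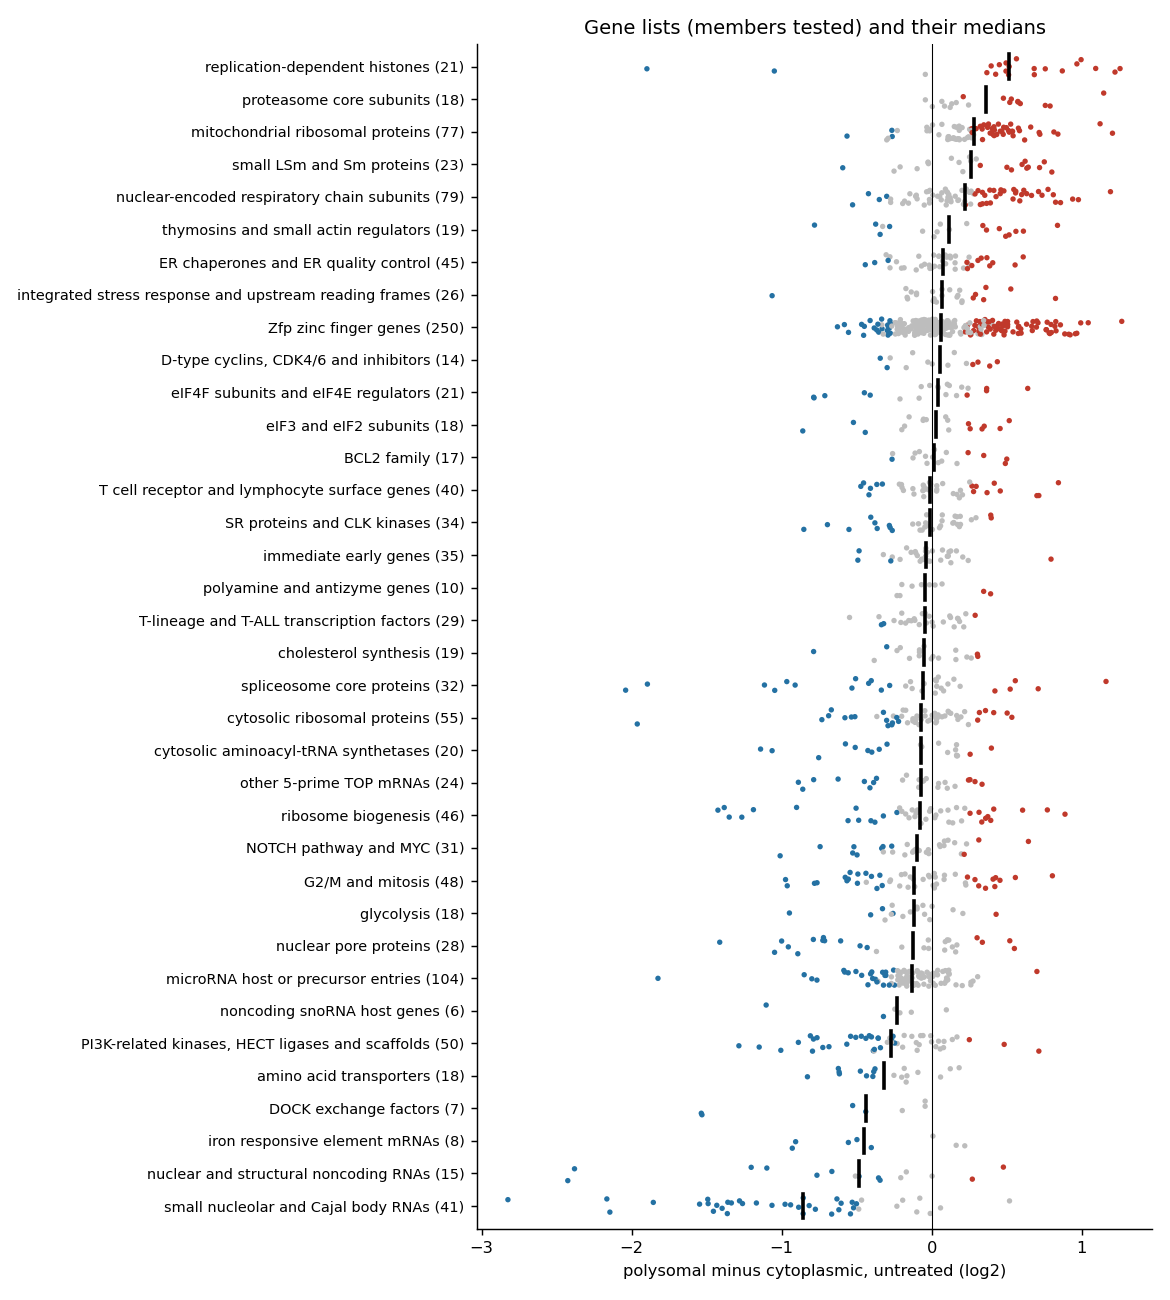
Polysomal minus cytoplasmic difference (x axis, log2) of each tested member of the gene lists (y axis), with called members in red (higher) or blue (lower), the others in grey and the median of each list as a black bar. The small nucleolar RNAs centre on -0.86 and the replication-dependent histones on 0.52, beside -0.02 over all genes.

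The other genes with the largest positive differences were of varied function. Atxn1, the polyglutamine protein ataxin 1, read 9.84, 10.04 and 9.99 in polysomal and 7.28, 8.21 and 7.35 in cytoplasmic RNA (2.34 ± 0.26, 5.07-fold higher, adjusted p = 1.4e-05). A second, dimmer probe set of this gene gave -0.06, so the value belongs to 1 probe set. Ly96, the co-receptor of Toll-like receptor 4, went from 5.19, 5.43 and 5.91 to 7.52, 7.47 and 7.68 (2.04 ± 0.17, adjusted p = 9.76e-07). Its cytoplasmic values all lay below the level of the filter on dim genes, and the part of the array's floor in this difference was not tested. Then followed Cetn2, a centriole protein, at 1.38 ± 0.16 (adjusted p = 1.92e-05) and Hmgn5, a nucleosome-binding protein, at 1.37 ± 0.27 (adjusted p = 0.00138). Hmgn5 had widely spread cytoplasmic arrays, 10.01, 10.80 and 9.51, below the polysomal 11.58, 11.42 and 11.44. Sarnp, Stxbp4, Zfp825, Ift74, H2bc21 and Rab5b completed the 10, with differences of 1.36, 1.28, 1.27, 1.26, 1.26 and 1.25. For Stxbp4 a second probe set gave 0.21.

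Replication-dependent histone mRNAs end in a stem-loop in place of a poly(A) tail, and their near-identical copies can share probes, so single members are uncertain. Of 21 tested out of 28 on the array, 18 were higher and 2 lower, with a median of 0.52. H2bc21 went from 8.34, 9.06 and 8.39 to 9.80, 10.03 and 9.72 (1.26 ± 0.18, adjusted p = 0.00014). H1f1 rose from 10.27, 10.41 and 10.32 to 11.27, 11.07 and 10.95 (0.76 ± 0.09, adjusted p = 3.83e-05). The lower members were H2bc8, with 8.73, 8.87 and 8.75 against 6.85, 6.57 and 7.24 (-1.90 ± 0.16, adjusted p = 1.33e-06), and H1f2, with 8.95, 8.94 and 8.96 against 7.79, 7.92 and 7.99 (-1.05 ± 0.09, adjusted p = 1.07e-06). H2bc4 and H2bc3 were at 1.09 ± 0.14 and 1.00 ± 0.12 (adjusted p = 5.43e-05 and 4.01e-05). Zinc finger genes named Zfp, many of which hold long arrays of fingers, had 74 of 250 members higher and 21 lower, with a median of 0.06. The 21 became 12 without polysomal array 1 and 12 without polysomal array 3. Zfp825 was the highest, at 9.98, 9.83 and 9.85 against 8.34, 9.13 and 8.40 (1.27 ± 0.17, adjusted p = 8.32e-05).

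The translation machinery itself lay on both sides of 0. Its mRNAs often begin with a 5' terminal oligopyrimidine (TOP) tract, a cytosine followed by a run of pyrimidines, through which growth signals regulate their translation. Of 55 cytosolic ribosomal proteins, 14 were lower and 6 higher, with a median of -0.07. The 14 became 9, 9 and 8 without polysomal arrays 1, 2 and 3 in turn. Of 24 other TOP mRNAs, 8 were lower and 4 higher, with the same median of -0.07, and the 4 became 2 without cytoplasmic array 1, 1 without polysomal array 1, and 2 without polysomal array 2 or 3. Below are the first 24 bases from the RefSeq start (GRCm38.p6) of members on either side of 0. They were picked by their values among called members whose start opens with C and at least 4 pyrimidines. Ipo7, Rps18 and Eif2s3x, called and with such a start too, are among those not shown. The opening runs differ in length, at 11, 5, 6 and 13 bases in the order below. Capitals mark the opening pyrimidine run.
Eif3f, chr7:108934415-108934438, plus strand: CTCTCTTTCTCggcaagatggctt
Rplp2, chr7:141447651-141447674, plus strand: CTTTCgccgccggacgccgccgag
Rpl14, chr9:120571517-120571540, plus strand: CTTCTCgctgagcgccgccaacat
Fau, chr19:6057947-6057970, plus strand: CTTCCTCTTTCTTgactccatctt

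Eif3f, a subunit of the initiation factor eIF3, was lower at 10.62, 10.37 and 10.55 against 11.35, 11.21 and 11.55 (-0.86 ± 0.10, adjusted p = 1.68e-05). Rplp2, a stalk protein of the large subunit, was lower at 7.76, 7.84 and 7.95 against 8.36, 8.66 and 8.53 (-0.67 ± 0.09, adjusted p = 7.99e-05). Rpl14 was higher at 9.96, 9.98 and 9.85 against 9.53, 9.42 and 9.61 (0.41 ± 0.08, adjusted p = 0.00114). Fau, the precursor of small subunit protein S30, was higher at 11.63, 11.68 and 11.53 against 11.07, 11.23 and 11.03 (0.50 ± 0.09, adjusted p = 0.000469). The fractions did not overlap in any of these genes. Of the 8203 tested coding genes with 1 listed start, 189 (2.30%) began with C and at least 4 pyrimidines; 31 of these were higher and 30 lower, with a median of -0.04. Among the 38 ribosomal protein genes with 1 listed start, 9 (23.7%) began that way, a share that depends on how exactly the annotation places the start. Across the 8203 genes, the GC content of the first 50 bases had a Spearman correlation of -0.06 with the difference.

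Further ribosomal protein genes lay on both sides of 0 too, while Eef2 and Pabpc1 were lower. Rpl12 had the lowest value of the ribosomal proteins, 6.58, 6.31 and 6.44 against 8.49, 8.11 and 8.61 (-1.96 ± 0.14, 3.9-fold lower, adjusted p = 1.6e-07). Rplp0 fell from 12.65, 12.58 and 12.86 to 12.01, 11.99 and 11.90 (-0.73 ± 0.09, adjusted p = 3.89e-05), and Rpl41, which encodes the smallest ribosomal protein, from 13.00, 12.87 and 13.11 to 12.32, 12.24 and 12.35 (-0.69 ± 0.09, adjusted p = 4.83e-05). Rpl34 was higher, at 0.53 ± 0.10 (adjusted p = 0.000917). Ribosomal protein genes have many processed copies in the genome, and probe sets may report several of them. Eef2, the elongation factor that moves the ribosome along, fell from 12.63, 12.45 and 12.63 to 11.72, 11.62 and 11.71 (-0.89 ± 0.09, adjusted p = 6.11e-06). Pabpc1, the cytoplasmic poly(A)-binding protein, went from 12.71, 12.43 and 12.78 to 11.85, 11.87 and 11.83 (-0.79 ± 0.11, adjusted p = 9.09e-05).

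Among the 18 eIF3 and eIF2 subunits 6 were higher and 3 lower, and the 6 became 3 without polysomal array 1. The lower ones were Eif3f, given above, and Eif3a and Eif3c, at -0.52 ± 0.07 and -0.44 ± 0.08 (adjusted p = 8.04e-05 and 0.001). Among the higher ones were Eif3k and Eif3m, at 0.34 ± 0.08 and 0.52 ± 0.13 (adjusted p = 0.00524 and 0.00694). Of 21 genes of the cap-binding complex eIF4F and its regulators, 5 were lower (23.81%) and 4 higher (19.05%), beside 12.2% and 16.7% over all genes. The 4 became 2 without polysomal array 1. Eif4g3, a scaffold of that complex, fell from 10.37, 10.01 and 10.10 to 9.36, 9.48 and 9.50 (-0.71 ± 0.10, adjusted p = 0.000142), and Eif4b by 0.45 ± 0.08 on the log2 scale (adjusted p = 0.000492). Pdcd4, which sequesters the helicase eIF4A, rose from 9.51, 9.73 and 9.26 to 10.26, 10.00 and 10.15 (0.64 ± 0.11, adjusted p = 0.000444). Eif4e, the cap-binding protein, read 11.88, 11.75 and 11.81 against 11.59, 11.67 and 11.47 (0.24 ± 0.08, adjusted p = 0.0337). That call was lost without cytoplasmic array 1 or 3 or polysomal array 1 or 3 (adjusted p of up to 0.128), and its other probe sets gave 0.81 and -0.07.

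Aminoacyl-tRNA synthetases, which charge tRNAs, had 9 lower and 2 higher members of 20, and the 2 became 1 without cytoplasmic array 1, polysomal array 1 or polysomal array 3. Lars, for leucine, fell from 11.21, 11.36 and 11.13 to 10.03, 10.13 and 10.13 (-1.14 ± 0.08, adjusted p = 2.46e-07), and Eprs, for glutamate and proline, from 11.73, 11.73 and 11.68 to 10.66, 10.65 and 10.64 (-1.06 ± 0.07, adjusted p = 8.31e-08). Yars, for tyrosine, was higher at 0.40 ± 0.09 (adjusted p = 0.00435). Ribosome biogenesis genes had 13 lower and 10 higher members of 46. Polr1a, the largest subunit of RNA polymerase I, was at 8.44, 8.54 and 8.55 against 9.87, 9.79 and 9.92 (-1.35 ± 0.07, adjusted p = 2.37e-08). Heatr1 and Nat10, nucleolar proteins of early ribosome assembly, were at -1.19 ± 0.08 and -1.27 ± 0.08 (adjusted p = 8.31e-08 for both). The assembly factors Utp18 and Utp3 were higher, at 0.89 ± 0.14 and 0.77 ± 0.14 (adjusted p = 0.000251 and 0.000623).

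mRNAs with known translational control elements were examined as lists too. Iron-responsive elements bind the iron regulatory proteins, which block ribosome entry on ferritin mRNA and stabilise the transferrin receptor mRNA. Of 8 genes tested on this list, which includes the regulatory proteins themselves, 5 were lower and 0 higher, with a median of -0.45. At an unadjusted limma p below 0.05, 1 was higher, and 1 was called higher without cytoplasmic array 2 and after median centring. Fth1, ferritin heavy chain, fell from 12.25, 12.14 and 12.45 to 11.36, 11.31 and 11.38 (-0.93 ± 0.08, 1.9-fold, adjusted p = 2.04e-06). Tfrc, the transferrin receptor, went from 11.80, 11.88 and 11.71 to 11.29, 11.25 and 11.36 (-0.50 ± 0.08, adjusted p = 0.000216), and Aco1, which doubles as iron regulatory protein 1, from 9.69, 9.60 and 9.56 to 8.71, 8.71 and 8.70 (-0.91 ± 0.09, adjusted p = 7.21e-06). Of 26 genes of the integrated stress response or with upstream reading frames, 6 were higher and 1 lower, and the 6 became 3 without polysomal array 1. Ifrd1 rose from 9.94, 10.32 and 9.81 to 10.84, 10.89 and 10.81 (0.83 ± 0.12, adjusted p = 0.000154). Atf4 and Ddit3, the transcription factors of that response, were at 0.07 ± 0.08 and 0.01 ± 0.09 (adjusted p = 0.576 and 0.953), with overlapping arrays. Odc1, the polyamine synthesis enzyme, was at -0.13 ± 0.09 (adjusted p = 0.301).

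Genes of the leukaemia and of T cells lay on both sides of 0. Notch1, the receptor whose activation drives many T-ALLs, fell from 10.72, 10.25 and 10.51 to 9.43, 9.57 and 9.46 (-1.01 ± 0.14, 2.01-fold lower, adjusted p = 0.000108). Notch2 followed, from 8.11, 7.89 and 8.17 to 7.28, 7.26 and 7.39 (-0.74 ± 0.12, adjusted p = 0.000294). Of the 31 NOTCH and MYC pathway genes, 8 were lower and 3 higher, and the 8 became 5 without cytoplasmic array 3. Max, the partner of MYC, was higher, at 11.91, 12.03 and 11.99 against 11.22, 11.65 and 11.12 (0.64 ± 0.13, adjusted p = 0.00199). Myc read 11.80, 11.69 and 11.82 against 12.10, 11.77 and 12.40, with overlapping arrays (-0.32 ± 0.13, adjusted p = 0.0828). Of the anti-apoptotic genes, Bcl2 went from 6.92, 6.90 and 6.98 to 7.33, 7.48 and 7.46 (0.49 ± 0.09, adjusted p = 0.000773), and Mcl1 had overlapping arrays (-0.04 ± 0.13, adjusted p = 0.856). Ccnd3, the cyclin that drives thymocyte division, was not called (-0.28 ± 0.12, adjusted p = 0.0956).

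Of 40 T cell receptor and lymphocyte surface genes 9 were higher (22.5%) and 6 lower (15.0%), near the 16.7% and 12.2% over all genes tested. Cd3d, a chain of the T cell receptor complex, rose from 10.20, 10.60 and 10.31 to 11.12, 11.09 and 11.01 (0.70 ± 0.11, adjusted p = 0.000188), and Trat1, which stabilises that complex, from 8.06, 8.32 and 7.96 to 8.93, 8.91 and 9.03 (0.84 ± 0.11, adjusted p = 4.56e-05). Rag1, the recombinase subunit, fell from 12.36, 12.34 and 12.19 to 11.84, 11.89 and 11.88 (-0.43 ± 0.07, adjusted p = 0.000411). Cd68, a lysosomal glycoprotein used as a myeloid marker, was lower at 6.51, 6.74 and 6.63 against 7.99, 7.52 and 7.88 (-1.17 ± 0.11, adjusted p = 2.64e-06). It was the 1 called gene of 6 myeloid markers tested out of 14, and the list mean was 6.64 to 6.73 in cytoplasmic and 6.43 to 6.45 in polysomal arrays. The cells were measured in bulk, and the part of other cells in this value was not tested.

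Amino acid transporters had 9 lower members of 18 tested and 0 higher, with a median of -0.31. At an unadjusted limma p below 0.05, 1 was higher, and 1 was called higher in 3 of 20 alternative fits. Slc38a2 gave 11.57, 11.54 and 11.53 against 12.27, 12.04 and 12.18 (-0.62 ± 0.09, adjusted p = 0.000142), and Slc7a3 8.66, 8.56 and 8.72 against 9.16, 9.19 and 9.44 (-0.62 ± 0.08, adjusted p = 8.32e-05). Of 48 genes of mitosis 15 were lower (31.25%) and 10 higher (20.83%), beside 12.2% and 16.7% over all genes. The 10 became 6 without polysomal array 1. Top2a, the topoisomerase that untangles chromosomes, fell from 12.28, 12.16 and 12.23 to 11.34, 11.15 and 11.26 (-0.97 ± 0.08, adjusted p = 6.47e-07), and the kinesin Kif4 from 10.56, 10.53 and 10.55 to 9.54, 9.55 and 9.65 (-0.96 ± 0.07, adjusted p = 4.8e-07). The mitotic genes Pttg1, or securin, and Birc5, or survivin, were higher, at 0.80 ± 0.15 and 0.56 ± 0.11 (adjusted p = 0.000974 and 0.0011). In glycolysis Hk2, a hexokinase, was lower at 7.34, 7.42 and 7.34 against 8.33, 8.35 and 8.27 (-0.95 ± 0.09, adjusted p = 5.44e-06). The enzyme Tpi1 was higher at 0.43 ± 0.10 (adjusted p = 0.00524).

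The same difference was measured in cells given 4EGI-1. The untreated and the 4EGI-1 values share no array, and across the 13180 genes they had a Pearson correlation of 0.72, where genes are not independent of each other. Of the 2205 genes higher in untreated cells, 2081 were positive in 4EGI-1 cells too, and of the 1614 lower genes 1365 were negative. Of the 9361 genes not called, 6364 kept their sign. The 4EGI-1 value was smaller in size for 1946 of the higher, 1332 of the lower and 4329 of the uncalled genes. Called genes were picked by their untreated value, so their smaller 4EGI-1 values follow in part from that choice. The difference between the treatments was tested as an interaction in the same limma fit and shares the untreated arrays with the values above. It was called for 385 genes (2.92%), of which 80 lay above 0 (0.607%) and 305 below 0 (2.31%), where below 0 means a lower polysomal value in untreated than in 4EGI-1 cells.

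Under the naming rule, the largest treatment differences below 0 were those of Prpf8, H2bc8, Cltc, Mybbp1a and Glg1. The rule leaves out predicted and placeholder symbols. It also asks that the polysomal minus cytoplasmic values of same-numbered arrays do not overlap between the treatments. Prpf8 was at -2.04 in untreated and -0.37 in 4EGI-1 cells, a difference of -1.67 ± 0.15 (adjusted p = 5.12e-05). Cltc was at -1.66 and -0.17, a difference of -1.49 ± 0.12 (adjusted p = 3.44e-05). Mybbp1a, a nucleolar protein, was at -1.42 and 0.00 and Glg1, a Golgi sialoglycoprotein, at -1.37 and -0.02, with differences of -1.42 ± 0.21 and -1.35 ± 0.16 (adjusted p = 0.00129 and 0.000224). H2bc8, a histone, was at -1.90 and -0.35, a difference of -1.55 ± 0.23 (adjusted p = 0.00129). In each of these the 4EGI-1 value was nearer to 0, as it was for most genes called in untreated cells. Of the 50 PI3K-related kinases, ligases and scaffolds, 11 differed below 0 and 0 above, and the list's median was 0.00 in 4EGI-1 cells against -0.27 in untreated cells. Of 28 nuclear pore genes 9 differed below 0, of 32 spliceosome genes 9, and of 48 mitosis genes 14.

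Of the 41 small nucleolar RNAs 1, Snora73b, was called different between treatments, and the medians were -0.86 in untreated and -0.91 in 4EGI-1 cells. For Rpph1 the values were -2.43 and -2.52, and for Rn7sk -2.38 and -2.13 (adjusted p of the difference 0.879 and 0.504). The Snora73b call was lost without 8 of the 12 arrays in turn, cytoplasmic untreated array 1 among them, with an adjusted p of up to 0.0913. Mitochondrial ribosomal proteins differed above 0 for 4 of 77 members and respiratory subunits for 4 of 79, with 4EGI-1 medians of 0.14 and 0.08. Mrpl42 was at 0.81 and 0.01, a difference of 0.81 ± 0.14 (adjusted p = 0.0039), and Bet1, a Golgi SNARE, at 0.78 and 0.03, a difference of 0.74 ± 0.13 (adjusted p = 0.00565). Fth1 was negative in both treatments and further from 0 with 4EGI-1, at -0.93 and -1.66 (difference 0.73 ± 0.12, adjusted p = 0.00268).

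**Figure D5:**
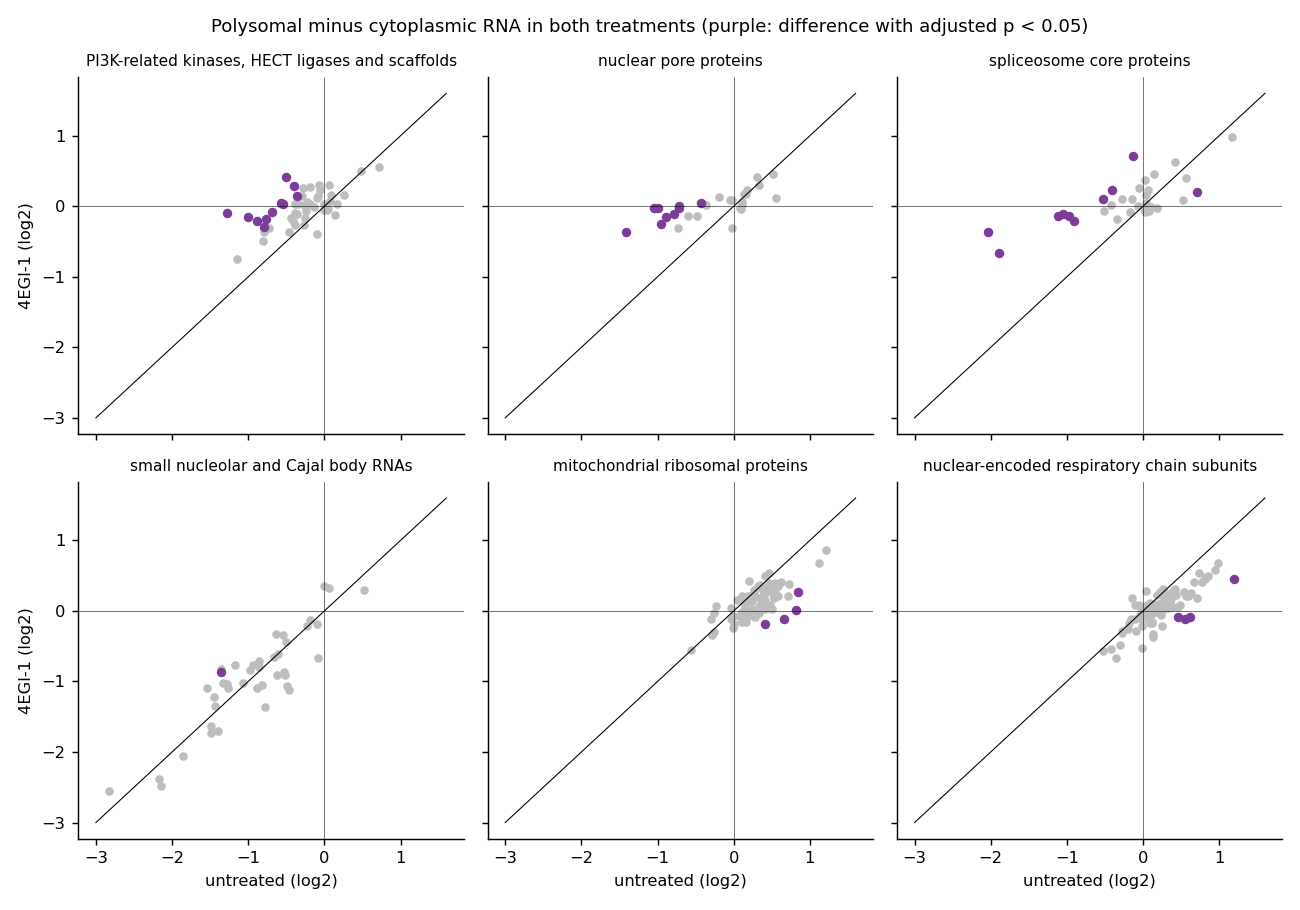
Polysomal minus cytoplasmic difference in untreated cells (x axis, log2) against that in 4EGI-1 cells (y axis, log2) for the tested members of 6 lists, with the line of equal values; purple points differ between treatments at an adjusted p below 0.05. Purple points below 0 on the x axis lie above the line, as Prpf8 (-2.04 and -0.37) and Snrnp200 (-1.90 and -0.66) do, while Birc6 (-0.81 and -0.49) was not called different.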

How the data were processed

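RNA of 12 single-colour whole-transcript arrays was used through the deposited series table, in which the authors give 1 log2 value per probe set and array, made with RMA per the submitters' processing notes; its version is not given in the sources used here. Of 34760 probe sets, 21640 had 1 gene symbol, 1321 several and 11799 none, by the platform annotation, updated through Entrez numbers to RefSeq (GRCm38.p6), which matched 19855 of 19937 symbols. The brightest probe set stood for each of 954 genes with several. A filter on dim genes, set at the 40th percentile of the mean over arrays (log2 6.00), removed 6757. The fit of 4 group means to all 12 arrays used lmFit and eBayes of limma 3.58.1 (R 4.3.3), adjusted by Benjamini-Hochberg over 13180 genes at 0.05; the fit was tested on simulated data. The named genes are the 10 coding and 5 noncoding genes with the largest differences in each direction among called genes without overlapping arrays (no predicted symbols, microRNAs, olfactory receptors or ribosomal pseudogenes), up to 3 per list and direction, 12 genes named always, and the 5 largest treatment differences each way; microRNA entries, Snora23, Terc, Rnu12 and genes with a printed sequence were added after their values were seen. The members and lists were chosen with earlier results of these data known. Protein-coding genes and pseudogenes entered no noncoding list. No protein or transcript lengths were used; genomic span stood in for them. The alternatives were the arrays in the fit, the replicate number as a block, the filter, the probe set, the scaling, the variance model, a 1.5-fold threshold and leaving out each array.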

Additional observations from a re-analysis of the deposited data

Results flagged for a closer look

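The polysomal minus cytoplasmic value of 53 named genes differed between untreated and 4EGI-1 cells by the limma interaction test at an adjusted p below 0.05. The values below are untreated minus 4EGI-1 on the log2 scale, with 43 genes below 0 and 10 above. Over all 13180 genes tested the call was made for 385 (2.92%), 80 above 0 and 305 below. The named genes were mostly picked by their untreated difference, which is 1 term of the tested difference, and some by the treatment difference itself. The count of 53 and its directions therefore follow in part from that choice. Among genes of splicing and RNA processing, the differences were Prpf8 (-1.67), Snrnp200 (-1.24), Sf3b1 (-0.70), Srrm2 (-0.76), Sf3b5 (0.51) and Snora73b (-0.49). For nuclear pore and transport genes they were Nup133 (-0.97), Nup155 (-0.70), Nup205 (-1.04) and Ipo5 (-0.47). Genes of ribosome assembly, translation and tRNA charging gave Mybbp1a (-1.42), Polr1a (-1.04), Heatr1 (-1.03), Nat10 (-0.94), Eef2 (-0.63), Eif3a (-0.45), Eif3c (-0.61), Eif4g3 (-0.62), Eprs (-0.95), Lars (-1.07) and Tars (-0.51). Genes of mitosis, DNA replication and chromatin gave Kif2c (-1.04), Kif4 (-1.09), Top2a (-0.90), Pole (-1.13), H1f2 (-1.09), H2bc8 (-1.55), Zfp110 (-0.67) and Zfp407 (-0.53). Metabolic and protein-modifying enzymes and transporters gave Cad (-1.27), Ogt (-0.54), Fasn (-1.11), Mthfd1 (-1.26), Hk2 (-0.66), Slc7a3 (-0.57) and Slc10a1 (0.80). Cytoskeletal, signalling and trafficking genes gave Cltc (-1.49), Dock2 (-1.29), Dock8 (-1.18), Dock11 (-0.49), Myh9 (-1.19), Glg1 (-1.35), Bet1 (0.74) and Rab5b (0.65). Genes of the endoplasmic reticulum gave Hyou1 (-0.61) and Derl2 (0.65). Iron-related genes gave Aco1 (-0.72), Tfrc (-0.48) and Fth1 (0.73). Mitochondrial genes gave Mrpl33 (0.78), Mrpl42 (0.81), Mrpl48 (0.57) and Ndufa5 (0.74). The call held for 34 of these genes whichever of the 12 arrays was left out. It was lost without at least 1 array for the other 19, which were Derl2, Dock11, Eif3a, Eif4g3, Fasn, Hk2, Ipo5, Mrpl33, Mrpl48, Ndufa5, Ogt, Rab5b, Sf3b5, Slc10a1, Slc7a3, Snora73b, Tars, Tfrc and Zfp407. Among those, the highest adjusted p without an array was 0.146, for Sf3b5. For Hk2 the call was lost only without 4EGI-1 polysomal array 3 (adjusted p = 0.0539), and for Slc10a1 only without 4EGI-1 polysomal array 1 (adjusted p = 0.0503).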

How the results depend on the processing

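In the untreated comparison, 2205 genes were higher and 1614 lower. The count of lower genes was 933 after median centring and 2845 with array weights, and against a 1.5-fold threshold 36 genes were higher and 101 lower; the last is a stricter question by construction, and the cause of the others was not tested. All other alternatives that keep every array stayed within 1.5 times of both counts. Leaving out each untreated array gave 1649 to 2240 higher and 1146 to 1925 lower genes. No paired design was assumed in the fit, but the naming of the largest treatment differences matched arrays by number. Same-numbered arrays of untreated cells correlated in their deviations with r of 0.02, 0.14 and 0.13. The numbers therefore do not show pairing by themselves, although each untreated array correlated best with its own number. With the replicate number as a block, 2028 genes were higher and 1543 lower in the 6 untreated arrays, and 2195 and 1666 with a block of 6 cultures in 12 arrays. The difference between treatments had 80 genes above and 305 below 0, and 79 and 278 with that block. It was less steady when an array was left out, with 19 to 259 genes above and 179 to 411 below 0. Above 0, the count moved by over 1.5 times without untreated cytoplasmic array 1 (32) or 2 (259), 4EGI-1 cytoplasmic array 1 (19) or 3 (211), untreated polysomal arrays 1 to 3 (32, 22 and 31) and 4EGI-1 polysomal arrays 1 to 3 (28, 40 and 21). Below 0 it did so without untreated polysomal array 1 (179) or 2 (194) and 4EGI-1 polysomal array 1 (180) or 3 (179). Of 200 named genes that were called, up to 24 lost the call without 1 array, 152 against the 1.5-fold threshold, and none changed direction. The named genes whose sign changed were not called: Ddit3 was -0.0044 with array weights and lay between -0.0746 and 0.0858 when 1 array was left out, and Mcl1 was 0.0358 after median centring and lay between -0.110 and 0.0073 when 1 array was left out. The genomic span of a gene had a Spearman correlation of 0.02 with the difference across 12523 coding genes and of -0.04 across the 8585 left by a filter at the 60th percentile, so its sign depends on the filter; the measure was chosen after seeing the data, in place of protein length, and holds introns.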

Other observations

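Further lists were counted in untreated cells. Over all genes tested 16.7% were higher and 12.2% lower, and no list was tested against these shares. Of 19 small actin regulators tested, 8 were higher and 4 lower. Gmfg, a glia maturation factor of blood cells, went from 9.22, 9.47 and 9.58 to 10.24, 10.31 and 10.25 (0.84 ± 0.09, adjusted p = 9.69e-06), and the thymosin Tmsb10 from 10.99, 10.44 and 11.02 to 9.98, 9.99 and 10.14 (-0.78 ± 0.17, adjusted p = 0.00272). Of 45 chaperone and quality control genes of the endoplasmic reticulum, 10 were higher and 3 lower. Without polysomal array 1 the 10 became 6, and without cytoplasmic array 2 the 3 became 7. Sec62, of the translocation pore, was at 0.56 ± 0.08 (adjusted p = 0.000205) and the chaperone Hspa5 at -0.38 ± 0.08 (adjusted p = 0.00168).

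Of 35 immediate early genes tested, 1 was higher and 3 lower, and the 3 became 1 without cytoplasmic array 1, polysomal array 1 or polysomal array 3. Zfp36, which promotes decay of AU-rich mRNAs, was the higher one, with 7.42, 7.50 and 7.56 against 6.51, 6.80 and 6.79 (0.80 ± 0.09, adjusted p = 1.25e-05). Of 34 genes of SR proteins and their kinases 9 were lower and 2 higher (4 higher without cytoplasmic array 2), with Srrm2 at -0.69 ± 0.10 (adjusted p = 0.000142). Of 19 cholesterol synthesis genes 2 were lower and 2 higher. The 2 lower became 4 without cytoplasmic array 2, and the 2 higher became 0 without polysomal array 1 and 1 without cytoplasmic array 1 or 3 or polysomal array 3. Insig1, which retains the sterol sensor in the endoplasmic reticulum, was at 11.25, 11.41 and 11.37 against 12.19, 11.89 and 12.31 (-0.79 ± 0.11, adjusted p = 0.000129). Of 14 D-type cyclins, their kinases and inhibitors 4 were higher and 2 lower, and the 4 became 2 without cytoplasmic array 1 or polysomal array 3. The 2 lower calls became 0 without cytoplasmic array 1 or 3 or any 1 polysomal array. Cdk6 was at 0.39 ± 0.09 (adjusted p = 0.00567) and Rb1 at 0.44 ± 0.08 (adjusted p = 0.00106).

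Of 17 BCL2 family genes tested, 4 were higher and 1 lower, and the 4 became 1 without cytoplasmic array 1 and 2 without any 1 polysomal array. Of 29 T-lineage and T-ALL transcription factors, 1 was higher and 2 lower. The 2 became 7 without cytoplasmic array 2, 1 without cytoplasmic array 1 or 3 or polysomal array 1, and 0 without polysomal array 2. Of 10 polyamine genes, 2 were higher and 0 lower (1 lower at an unadjusted limma p below 0.05, and up to 3 called lower in 3 of 20 alternative fits), and the 2 became 1 without cytoplasmic array 3 or any 1 polysomal array. Of 18 glycolysis genes, 4 were lower and 1 higher, and the 4 became 1 without cytoplasmic array 1 and 2 without polysomal array 2 or 3. Of the 18 T cell markers, 4 were higher (22.22%) and 3 lower (16.67%). Of the 5 B cell and 3 erythroid and platelet markers tested, 0 were called, also 0 at an unadjusted limma p below 0.05. Of 8 stromal and epithelial markers, 2 were lower, and 1 without any 1 array other than cytoplasmic array 3.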
